A study of Mus musculus with 14 samples.

Results

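The 10 genes Smarca4, Smarcb1, Smarcc1, Smarcd1, Smarce1, Arid1a, Dpf2, Actl6a, Ss18 and Brd9 encode subunits of the BAF chromatin remodelling complexes of embryonic stem cells and were chosen by name, out of 21938 protein-coding and 55413 annotated genes. For each gene, the regions called for 5 antibodies were counted and placed, with those at the promoter kept apart from those in the gene body. The antibodies were directed against Smarca4 itself, against Ezh2, and against the histone marks H3K27me3, H3K27ac and H3K4me3.

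The libraries came from 81K1 cells, a mouse embryonic stem cell (mESC) line made from a single clone of the line OG2 and grown with serum and LIF. All 81K1 cells carry, at the Rosa26 locus, an anti-Smarcb1 shRNA cassette that is expressed in the presence of doxycycline. Control cells were untreated, and Smarcb1 knockdown (kd) cells received 1 µg/ml doxycycline for 72 h, so that the agent and the loss of Smarcb1 were not separated by the design. The 14 samples were 10 immunoprecipitated libraries, 1 per antibody and condition, and 4 inputs, so no value below has a replicate error or a test.

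BAF complexes use the energy of ATP to slide or evict nucleosomes and thereby open promoters and enhancers. The stem cell complex is built around the ATPase Smarca4 and a core of Smarcc1, Smarcd1, Smarce1 and Smarcb1, to which Arid1a and Dpf2 are added in canonical BAF and Brd9 in the non-canonical form that lacks Smarcb1. H3K27ac and H3K4me3 mark active promoters, whereas H3K27me3 is laid down by Ezh2, the catalytic subunit of Polycomb repressive complex 2, at silent genes.

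The promoters of these genes were rich in CG dinucleotides and, in most cases, in GC boxes. RefSeq promoter sequences (GRCm38.p6, 250 bases before to 50 after the start) matched 8 of the 10 genes in 10 entries. The 250 bases before the RefSeq start are printed 5′ to 3′ for 6 genes on which the results below turn. They are the gene whose product was immunoprecipitated (Smarca4), the knockdown target (Smarcb1), 2 genes with a further start inside the gene (Smarcc1 and Actl6a), the gene without a GC box (Dpf2) and a gene with H3K27ac in kd alone (Brd9). Capitals mark GC boxes (GGGCGG on either strand), the ETS-type motif CCGGAAG on either strand and, in Dpf2, a CCAAT box on either strand, and the motifs do not overlap each other, except that GC boxes may share bases.
Smarca4 (chr9:21615919-21616168, plus strand): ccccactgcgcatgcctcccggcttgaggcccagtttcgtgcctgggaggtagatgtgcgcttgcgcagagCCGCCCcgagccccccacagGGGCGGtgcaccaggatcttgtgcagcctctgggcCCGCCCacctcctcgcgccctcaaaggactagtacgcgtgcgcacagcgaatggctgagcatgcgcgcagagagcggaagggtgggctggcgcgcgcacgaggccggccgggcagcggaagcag
Smarcb1 (chr10:75921615-75921864, minus strand): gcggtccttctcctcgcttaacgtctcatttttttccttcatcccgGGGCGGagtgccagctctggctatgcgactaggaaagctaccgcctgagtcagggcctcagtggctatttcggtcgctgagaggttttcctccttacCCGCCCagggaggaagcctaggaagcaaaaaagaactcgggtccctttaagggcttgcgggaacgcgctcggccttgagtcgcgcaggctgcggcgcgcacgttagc
Smarcc1 (chr9:110131774-110132023, plus strand): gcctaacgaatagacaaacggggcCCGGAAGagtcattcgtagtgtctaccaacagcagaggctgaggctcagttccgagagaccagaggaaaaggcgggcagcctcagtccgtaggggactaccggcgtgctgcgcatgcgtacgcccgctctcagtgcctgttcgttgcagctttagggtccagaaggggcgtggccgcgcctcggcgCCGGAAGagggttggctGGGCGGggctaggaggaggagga
Dpf2 (chr19:5912872-5913121, minus strand): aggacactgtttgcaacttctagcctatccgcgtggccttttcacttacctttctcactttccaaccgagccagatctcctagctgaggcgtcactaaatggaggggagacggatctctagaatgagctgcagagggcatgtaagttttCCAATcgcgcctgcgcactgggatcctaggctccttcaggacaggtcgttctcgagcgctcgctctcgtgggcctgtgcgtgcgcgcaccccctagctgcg
Actl6a (chr3:32708296-32708545, plus strand): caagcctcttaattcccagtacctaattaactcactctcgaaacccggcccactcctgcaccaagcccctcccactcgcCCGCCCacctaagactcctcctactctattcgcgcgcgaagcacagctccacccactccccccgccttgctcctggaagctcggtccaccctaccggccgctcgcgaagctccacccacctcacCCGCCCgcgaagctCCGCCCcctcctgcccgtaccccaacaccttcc
Brd9 (chr13:73937561-73937810, plus strand): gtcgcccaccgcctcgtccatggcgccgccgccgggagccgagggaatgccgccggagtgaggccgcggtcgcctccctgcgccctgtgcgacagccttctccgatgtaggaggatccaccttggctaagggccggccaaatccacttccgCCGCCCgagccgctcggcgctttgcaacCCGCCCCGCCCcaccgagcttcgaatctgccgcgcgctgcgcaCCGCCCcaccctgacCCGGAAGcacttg
The GC box GGGCGG was present in 9 of the 10 entries and in 7 of 8 genes, compared with 35.6% of all 32817 promoters of this length. Dpf2 was the exception, with a CCAAT box, a motif held by 37.4% of all promoters. CCGGAAG was found in Brd9 and Smarcc1 (8.86% of all promoters). Neither the E-box CACGTG (7.15%), the TATA box TATAAA (13.6%) nor the NRF1 motif (0.966%) was found in any entry. The median number of CG dinucleotides was 33 in the 10 entries and 7 in all promoters. Arid1a had an entry at the GENCODE gene start and another 2784 bp inside the gene. For Actl6a and Smarcc1, the RefSeq start lay inside the gene as annotated by GENCODE, 2248 bp and 14316 bp beyond the gene start. These windows are described with their peaks below.

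Each list held the regions that the authors called in 1 library. There were 79014 Smarca4 peaks in control and 72339 after kd, 39091 and 51100 H3K27ac islands, and 26130 and 33506 H3K4me3 islands on the chromosomes kept. These are the lists as deposited, which hold more Smarca4 and H3K4me3 regions than the text of the study counts. For Smarca4, the study counted slightly more peaks after doxycycline than in control, the reverse of the order in these lists. The study centred its analysis on gene regions, but whether its counts were limited to these is not stated in the sources used here. Smarca4 and Ezh2 peaks carry a MACS2 score, which by the convention of that program grows with the negative logarithm of the q-value, and islands a p-value from SICER. As the labels give a nominal depth of about 20 M reads per sample but not the depth reached by each library, and as the scores of separate libraries are not on a common scale, each region is given with its rank, the percentage of regions in the same list with a weaker score or larger p-value. A promoter is the window of 1 kb on each side of the GENCODE gene start, and a gene was called if at least 1 bp of a region fell in it. The lists hold no RNA measurement and therefore do not check the knockdown of Smarcb1.

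All 10 genes had a Smarca4 peak at the promoter in control and all 10 after kd, compared with 62.5% and 63.5% of protein-coding genes. H3K4me3 islands were found at 9 of 10 promoters in each condition, Actl6a being the exception (56.6% and 60.4% of protein-coding genes). H3K27ac islands covered 7 promoters in control and 10 after kd, while the share of protein-coding genes was 16% in control and 30.9% after kd. No promoter carried an Ezh2 peak in control or after kd (7.13% and 12.6% of protein-coding genes) or an H3K27me3 island (34.9% and 29.2%). At a stricter limit (a negative log10 p-value of at least 10), 3 of the 7 control H3K27ac promoters (Smarca4, Arid1a and Dpf2) and 9 of the 10 kd promoters were kept. The share of protein-coding genes at this limit was not computed, so these counts cannot be read against all genes.

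**Figure D1:**
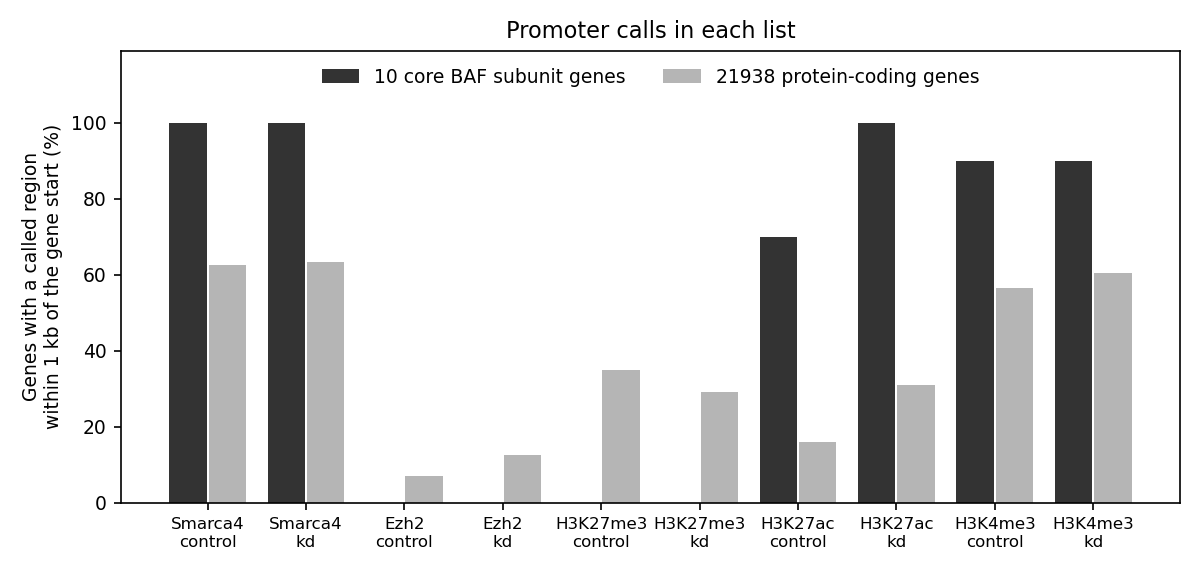
Share of genes with a called region within 1 kb of the gene start in each of the 10 lists, in percent, for the 10 core BAF subunit genes (black) and 21938 protein-coding genes (grey). The black bars reach 100% for Smarca4 in control and kd and for H3K27ac after kd, 90% for H3K4me3 and 0% for Ezh2 and H3K27me3.

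Over all 10 lists together, 3 combinations occurred. Smarca4, Smarcb1, Smarce1, Arid1a, Dpf2 and Ss18 carried Smarca4, H3K27ac and H3K4me3 in control and kd and no Polycomb mark, a combination shared by 11.4% of protein-coding genes. Smarcc1, Smarcd1 and Brd9 differed from it in that H3K27ac was called only in kd. Among all protein-coding genes, 16.8% had an H3K27ac promoter call after kd and not in control, and 1.83% the reverse, which applied to none of the 10 genes. Actl6a had Smarca4 and H3K27ac calls in each condition without H3K4me3 at the annotated start, a combination held by 36 protein-coding genes (0.164%).

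**Figure D2:**
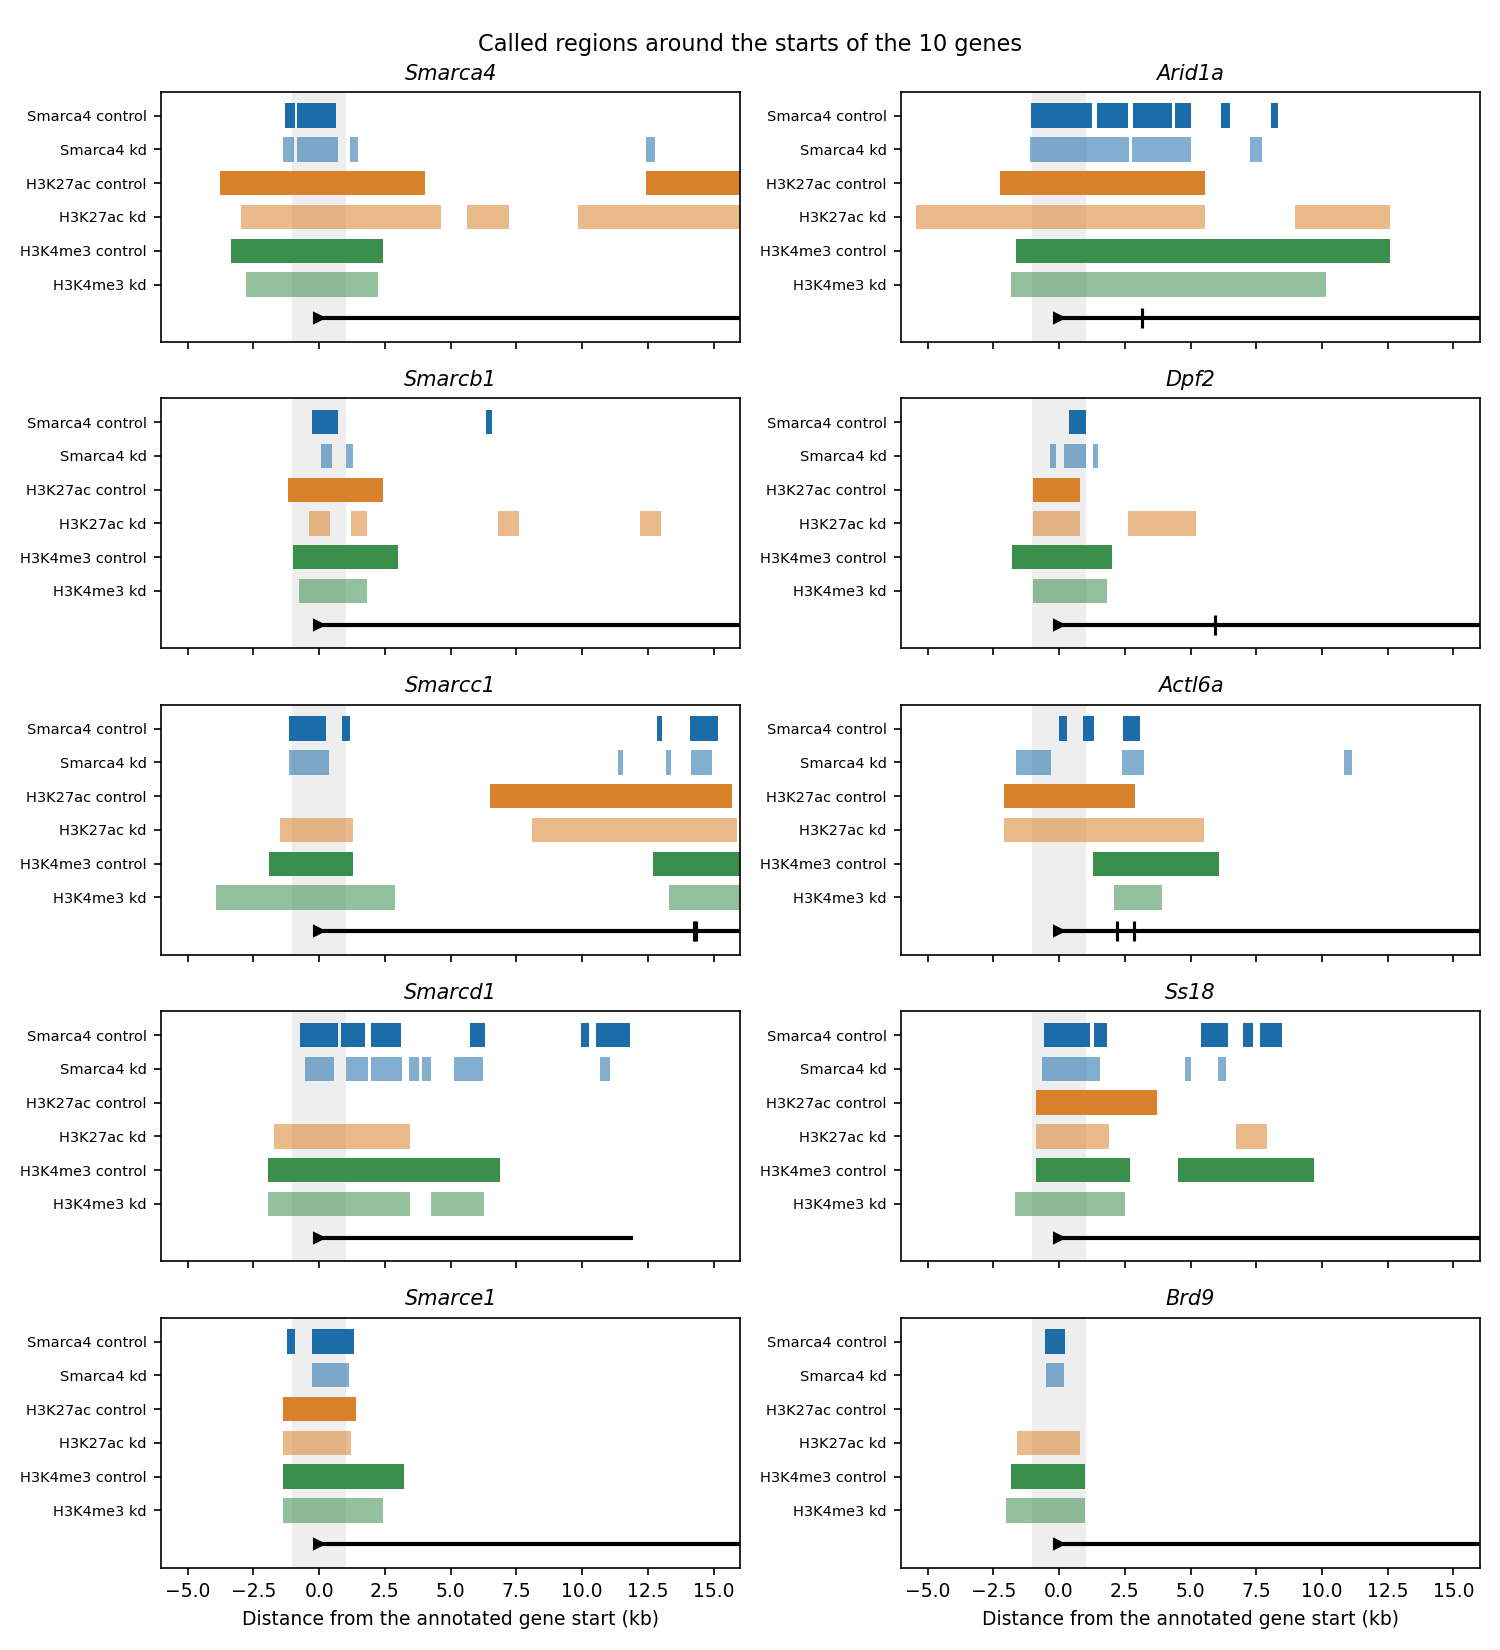
Called regions from 6 kb before to 16 kb after the gene start in kb, 1 panel per gene in the direction of transcription, with Smarca4 peaks in blue, H3K27ac islands in orange and H3K4me3 islands in green (dark control, pale kd). The grey band is the promoter window, the black line the gene, the arrowhead its start and vertical ticks coding transcript starts more than 1 kb downstream. Actl6a H3K4me3 islands begin 1303 bp (control) and 2103 bp (kd) after the start, and Brd9 shows no region in its gene body.

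The gene of the ATPase, Smarca4 (chr9:21616169-21704230, plus strand), was covered at its start by a Smarca4 peak of 1462 bp in control and 1558 bp after kd. Scores were 116 and 140, at ranks of 75.0% and 79.0%. A weaker neighbouring peak about 1 kb upstream had scores of 78 and 92. The Smarca4 gene was thus bound by its own product in each condition at a rank below the median of 85.2% (control) and 83.1% (kd) for the strongest promoter peak of bound protein-coding genes. Its H3K27ac island was among the widest of the 10 genes, at 7800 bp (rank 75.7%) and 7600 bp (rank 97.9%). The H3K4me3 island was 5800 bp wide in control and 5000 bp after kd.

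Smarcb1 (chr10:75896769-75921617, minus strand), a core subunit and the target of the shRNA, had narrower promoter regions after kd for Smarca4, H3K27ac and H3K4me3, as had Smarce1 to a smaller extent. The Smarca4 peak ran from -276 to 734 bp around the gene start in control, with a width of 1011 bp and a score of 130. After kd it ran from 77 to 489 bp, with a width of 413 bp and a score of 106, and no longer covered the start. The bases printed above for Smarcb1 lay within the control peak and outside the kd peak. The H3K27ac island was 3600 bp wide in control (rank 1.7%) and 800 bp after kd (rank 31.5%), the lowest H3K27ac rank among the called genes in each condition. H3K4me3 islands were 4000 bp and 2600 bp wide.

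Smarcc1 (chr9:110117708-110240178, plus strand), a scaffold subunit around which the complex assembles, showed the greatest difference in promoter rank for Smarca4. Its peak had a score of 60 and rank of 45.8% in control and a score of 331 and rank of 96.0% after kd, while the width was similar (1394 bp and 1511 bp). An H3K27ac island of 2800 bp at rank 78.4% was present in kd alone, and the H3K4me3 island measured 3200 bp and 6800 bp. This window also contains the start of Dhx30, so these regions cannot be assigned to Smarcc1 alone. A further Smarca4 peak within the gene, 14105 bp from the start in control, lay over the RefSeq start whose upstream bases are printed above. It had a score of 355 (rank 97.3%) in control and 448 (rank 98.6%) after kd, and was covered by H3K27ac islands of 9200 bp and 7800 bp and H3K4me3 islands of 6600 bp and 5600 bp. At this internal start Smarca4, H3K27ac and H3K4me3 were thus called in each condition, whereas H3K27ac was missing at the annotated start in control.

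Smarcd1 (chr15:99702129-99713991, plus strand), which links the complex to transcription factors, had a Smarca4 promoter peak with a score of 164 in control and 227 after kd. The order was reversed at the next strong peak, about 2 kb into the gene, with scores of 404 (rank 98.3%) and 223 (rank 89.5%). H3K27ac was called in kd alone, with an island of 5200 bp at rank 82.9%. This island also covered the starts of Gm17349 and Gm34939, so it cannot be assigned to Smarcd1 alone. A control H3K4me3 island of 8800 bp (rank 49.5%) corresponded to kd islands of 5400 bp (rank 84.7%) and 2000 bp (rank 10.7%). The islands of 8800 bp and 5400 bp covered the starts of Gm17349 and Gm34939 as well. Smarce1 (chr11:99209047-99231017, minus strand), a DNA-binding HMG box subunit, was simpler, with Smarca4 scores of 308 and 426 at ranks of 95.9% and 98.4%. Its H3K27ac island of 2800 bp (rank 22.6%) in control was 2600 bp wide (rank 65.2%) after kd, and no region of any antibody was called in its gene body.

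Arid1a (chr4:133679008-133756769, minus strand), the AT-rich interaction subunit specific to canonical BAF, had the widest promoter region of the 10 genes for H3K27ac after kd and for H3K4me3 in each condition. In control, 4 adjacent Smarca4 peaks stretched from -1052 to 5005 bp, with scores of 243, 388, 434 and 71. After kd, the same stretch held 2 peaks, of 3758 bp with a score of 571 (rank 99.5%) and of 2258 bp with a score of 461 (rank 98.8%). The number of peaks there was smaller after kd while the covered stretch, -1098 to 5026 bp, was nearly the same. The H3K27ac island extended over 7800 bp in control (rank 87.4%) and over 11000 bp after kd (rank 99.7%), and the H3K4me3 island 14200 bp and 12000 bp. These islands included a further coding transcript start 3158 bp into the gene.

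Dpf2 (chr19:5896516-5913010, minus strand), a PHD finger subunit that reads acetylated histone tails, had its main Smarca4 peak just downstream of the start, from 388 to 1040 bp in control and from 185 to 1011 bp after kd. Scores were 118 (rank 75.7%) and 78 (rank 60.5%), and a peak upstream of the start with a score of 23 was found in kd alone. H3K27ac islands had the same ends in each condition (1800 bp), the only island pair of the 10 promoters that did. The antisense gene Gm42067 starts within the same window.

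Actl6a (chr3:32706298-32726973, plus strand), an actin-related subunit, was the gene for which the choice of start mattered most. At the annotated start, control peaks with scores of 38 and 43 and a kd peak with a score of 76 did not overlap each other. The kd peak lay from -1640 to -317 bp, and 75.3% of its bases were masked as repeats in the reference. In contrast, a peak further into the gene was shared, from 2419 to 3076 bp in control with a score of 142 (rank 81.4%) and from 2410 to 3238 bp after kd with a score of 304 (rank 94.9%). It lay just downstream of the RefSeq start and of the GC-rich bases printed above for Actl6a. H3K4me3 islands of 4800 bp and 1800 bp lay at the same place, and the H3K27ac islands of 5000 bp (rank 2.8%) and 7600 bp (rank 81.5%) covered it at least in part together with the annotated start. When every coding transcript start was taken as a promoter, all 10 genes had H3K4me3 in each condition. Adding starts can only raise this count, and the share of protein-coding genes under the same rule was not computed.

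Ss18 (chromosome 18, minus strand), an accessory subunit known from its fusion in synovial sarcoma, had the strongest Smarca4 promoter peak of the 10 genes, with scores of 400 (rank 98.2%) and 616 (rank 99.7%) and widths of 1751 bp and 2191 bp. Its H3K27ac island was 4600 bp wide at rank 13.0% in control and 2800 bp at rank 84.8% after kd. Brd9 (chr13:73937811-73960895, plus strand), the bromodomain subunit that defines non-canonical BAF, had nearly equal Smarca4 peaks in the 2 conditions. Their scores were 165 and 181, their ranks 85.5% and 85.1% and their widths 754 bp and 699 bp. H3K27ac was called in kd alone (2400 bp, rank 51.2%), and H3K4me3 islands measured 2800 bp and 3000 bp. The Brd9 promoter window is shared with the start of Trip13, so these regions cannot be assigned to Brd9 alone.

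**Figure D3:**
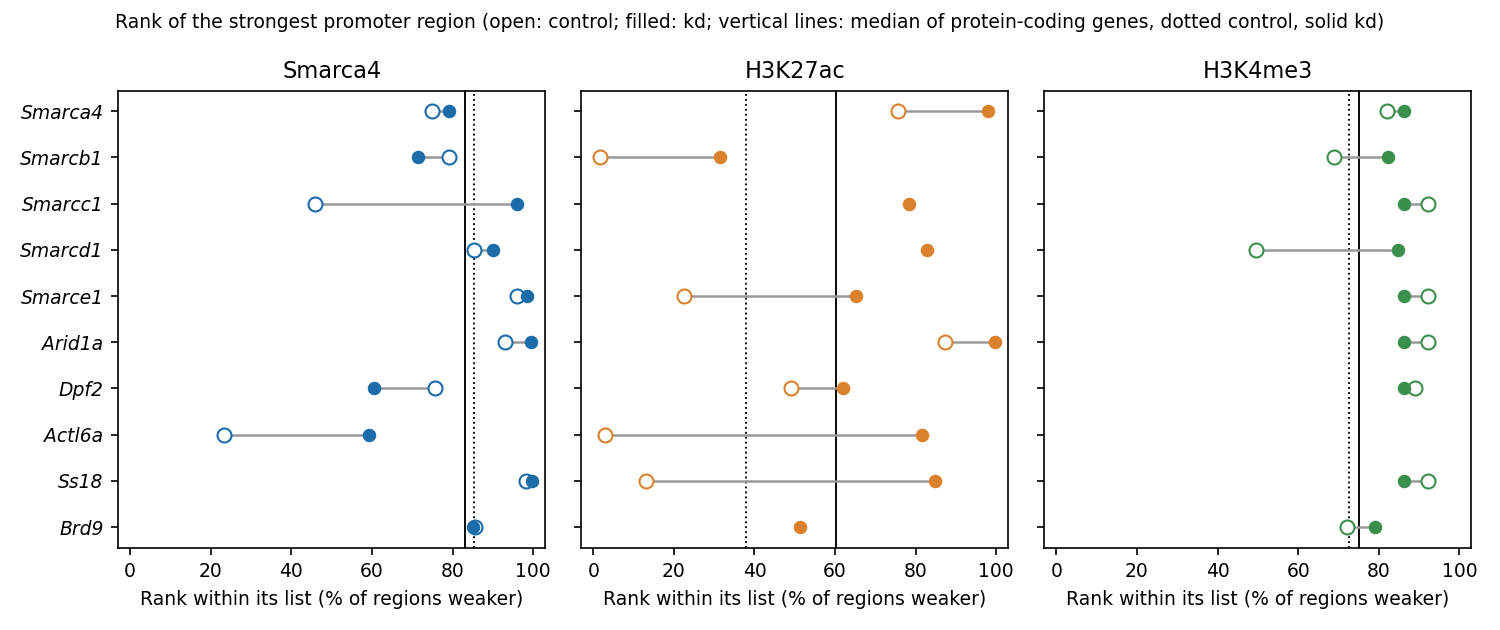
Rank of the strongest promoter region of each gene within its own list, in percent of regions that are weaker, for Smarca4, H3K27ac and H3K4me3 (open circles control, filled circles kd, lines join the same gene). Vertical lines give the median over called protein-coding genes (dotted control, solid kd). All 7 joined H3K27ac pairs are further right after kd, from Smarcb1 (1.7% and 31.5%) to Arid1a (87.4% and 99.7%). The H3K27ac list was longer after kd (51100 islands against 39091), and list length enters the rank.

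Over the 10 genes, the median Smarca4 rank at the promoter was 82.1% in control (range 23.3% to 98.2%) and 87.5% after kd (59.2% to 99.7%), against medians of 85.2% and 83.1% for all called protein-coding genes. The rank was higher after kd in 7 of 10 genes, and in 47.3% of protein-coding genes called in each condition. Exceptions were Smarcb1, Dpf2 and Brd9. For H3K27ac, the median rank was 22.6% over the 7 genes called in control and 80.0% over the 10 called after kd, compared with 37.8% and 60.2% in protein-coding genes. It was higher after kd in 7 of 7 genes called in each condition and in 80% of protein-coding genes, so the direction in these 7 genes was that of most promoters called. List length enters this rank, and the H3K27ac list was longer after kd (51100 islands against 39091). The number of stronger islands was smaller after kd in all 7 genes, but for Dpf2 it was nearly equal (19855 and 19437) at ranks of 49.1% and 61.9%. Ranks were not repeated with lists of equal length. H3K4me3 ranks were near the top of their lists, at medians of 89.1% and 86.2% (protein-coding 72.6% and 75.2%). The SICER p-value was listed as 0 for 7.65% of control and 13.8% of kd H3K4me3 islands, which cannot be ordered, and this set a ceiling of 92.3% in control and 86.2% after kd. At that ceiling, a lower H3K4me3 rank after kd leaves the order of strength unknown.

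Widths and ranks differed in direction at several genes. The strongest Smarca4 promoter peak measured 1428 bp in control (median) and 1367.5 bp after kd (870 bp and 817 bp in protein-coding genes), and was wider after kd in 6 of 10 genes and in 45.2% of protein-coding genes. The 6 include Actl6a, whose control and kd promoter peaks did not overlap. H3K27ac islands were narrower after kd in 4 of 7 genes, wider in 2 (Arid1a and Actl6a) and equal in Dpf2, although all 7 ranked higher. Among protein-coding genes, 55.4% had the narrower H3K27ac island after kd. H3K4me3 islands were narrower after kd in 6 of 9 genes and wider in Smarcc1, Ss18 and Brd9, while 60.8% of protein-coding genes had the narrower H3K4me3 island after kd. Island widths are steps of the caller's window and depend on read depth, which is not known for each library.

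**Figure D4:**
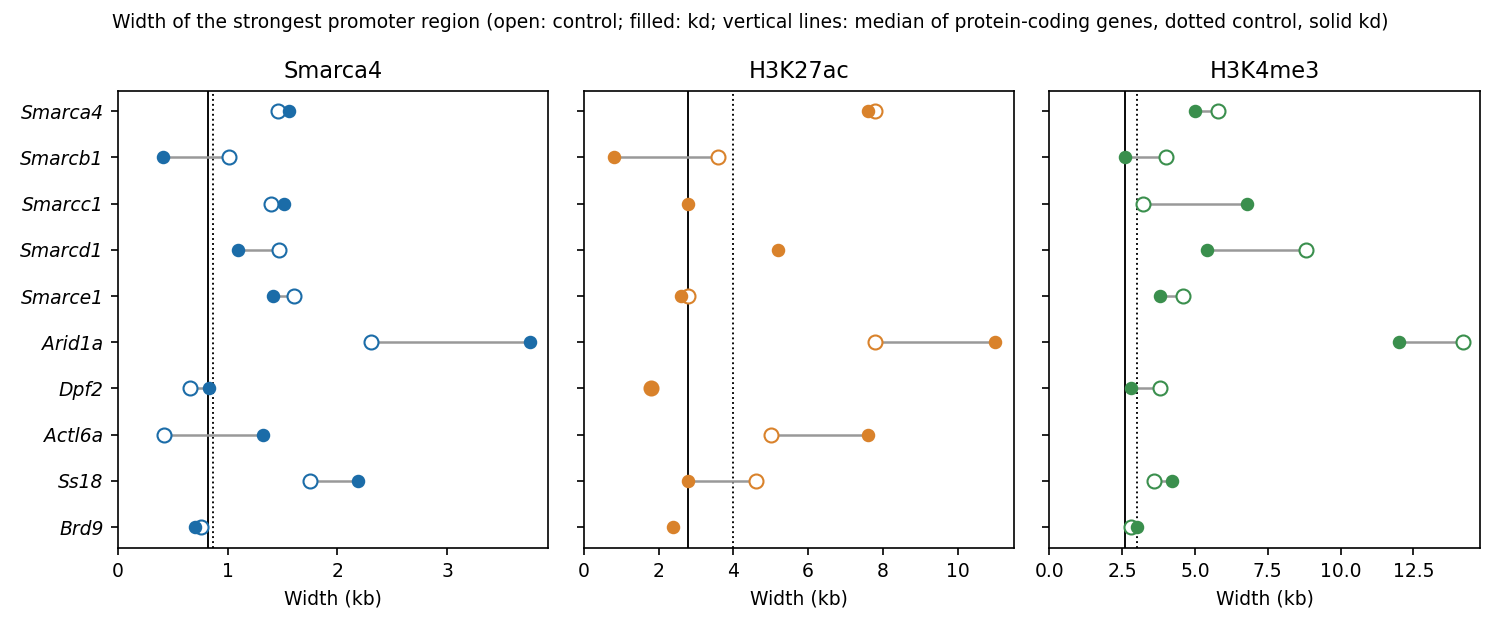
Width in kb of the strongest promoter region of each gene, with symbols and vertical lines as in the plot of ranks. Arid1a has the widest H3K4me3 islands (14.2 kb in control, 12.0 kb after kd), and Smarcb1 lies further left after kd for Smarca4, H3K27ac and H3K4me3.

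In the gene bodies, from 1 kb after the start to the gene end, 23 Smarca4 peaks were found in 6 genes in control and 23 peaks in 8 genes after kd (39.7% and 39.1% of protein-coding genes had at least 1). The totals were spread differently over the genes. Arid1a held 11 control and 5 kd peaks, Smarcd1 4 and 6, Ss18 4 and 2, Smarcc1 2 and 3, Actl6a 1 and 2 and Smarcb1 1 and 2. The bodies of the Smarca4 gene (2 peaks) and of Dpf2 (1 peak) were called in kd alone, and Smarce1 and Brd9 had none. Per 100 kb of gene body there were 5.04 peaks in each condition, compared with 3.57 and 2.81 over all protein-coding genes. As the median length of the genes was 23967 bp, against 17425 bp for all protein-coding genes, the density is given beside the counts. Peaks with a score of at least 50 numbered 18 in control and 14 after kd, and merging peaks within 600 bp left 15 and 14.

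H3K27ac islands in gene bodies numbered 5 in 3 genes in control and 21 in 6 genes after kd (22.1% and 30.7% of protein-coding genes). The kd islands were spread over Smarcc1 (6), Arid1a (5), the Smarca4 gene (4), Smarcb1 (3), Ss18 (2) and Dpf2 (1). Their density was 1.1 per 100 kb in control and 4.61 after kd (1.04 and 1.5 over all protein-coding genes). Repeat-masked bases made up at least 50% of 4 of the 5 control and 13 of the 21 kd islands, and without these, 1 and 8 islands were left. Their part in the result was not tested. The stricter limit left 3 and 13. H3K4me3 islands were few, with 3 in 3 genes in each condition (17.2% and 22% of protein-coding genes). They were the islands at the internal starts of Smarcc1 and Actl6a, a control island in Ss18 (5200 bp, rank 10.5%) and the kd island in Smarcd1. Ezh2 peaks (7.49% of protein-coding gene bodies in control, 5.07% after kd) and H3K27me3 islands (18.5% and 13.9%) were not called in any of the 10 gene bodies.

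**Figure D5:**
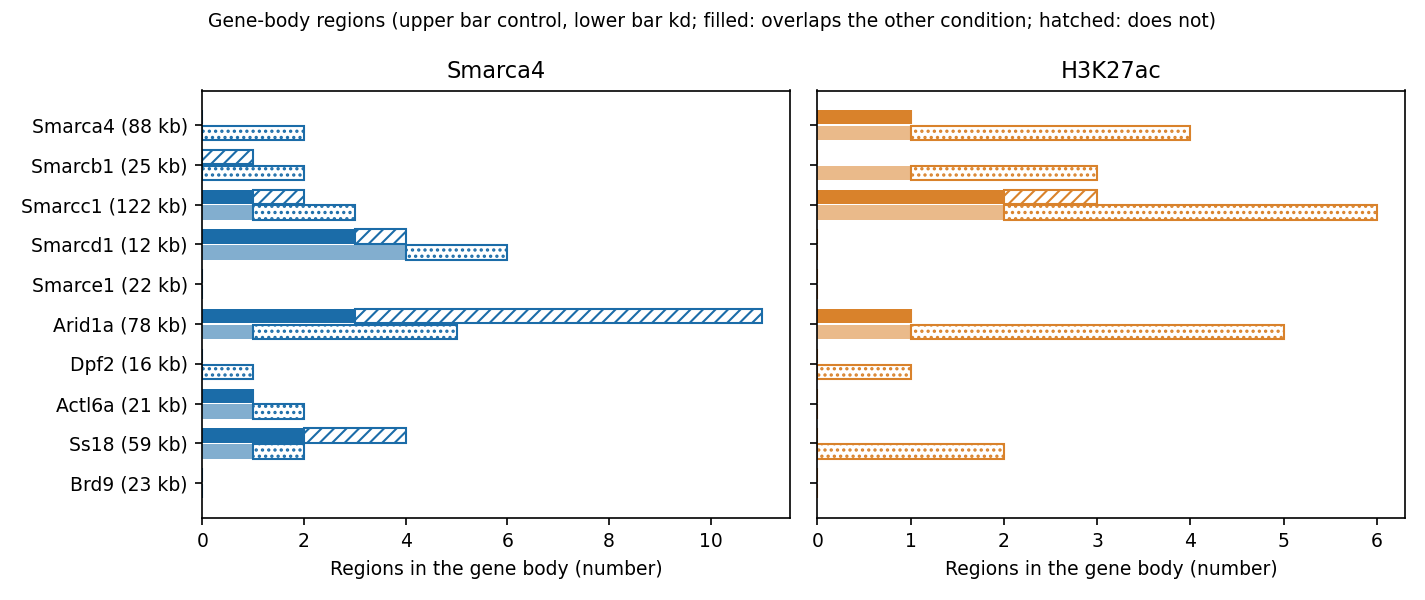
Number of Smarca4 peaks and H3K27ac islands in each gene body, with the gene length in kb beside its name (upper bar control, lower bar kd). Filled parts are regions with an overlapping counterpart (1 bp or more) and hatched parts those without, as in Arid1a, where 8 of 11 control Smarca4 peaks have no kd counterpart.

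Among the core BAF genes, regions without a counterpart in the other condition lay mostly in the gene bodies. Of 38 control Smarca4 peaks at promoters or in bodies, 17 (44.7%, Wilson 95% interval 30.1% to 60.3%) did not overlap a kd peak, and of 35 kd peaks 17 (48.6%, 33.0% to 64.4%) did not overlap a control peak. Over all protein-coding genes, these shares were 41.3% and 27.6%. At the promoters 4 of 15 control and 2 of 12 kd peaks had no counterpart, and in the bodies 13 of 23 and 15 of 23. The shares over all protein-coding genes were not split into promoters and bodies. Whether the difference between promoters and bodies is particular to the core BAF genes was therefore not tested. Body peaks without a counterpart were short and weak, with a median width of 328 bp and a median rank of 33.8% in control (shared body peaks 1034 bp and 82.8%), and 291 bp and 31.5% after kd (832 bp and 89.6%). An exception was a kd peak in an intron of the Smarca4 gene, 12436 bp from the start, with a score of 181 and rank of 85.1%, of which 74.2% of bases were repeat-masked. In Arid1a, a control peak 26486 bp from the start also had a score of 181 (rank 87.3%). When regions up to 1 kb apart counted as shared, 8 control and 5 kd peaks had no counterpart, and among peaks with a score of at least 50 these were 9 and 7. These 2 rules were not applied to all protein-coding genes, and the shares of 41.3% and 27.6% hold for the 1 bp rule only.

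For H3K27ac, 1 of 12 control islands (8.3%, 1.5% to 35.4%) and 19 of 31 kd islands (61.3%, 43.8% to 76.3%) had no overlap in the other condition, compared with 26.1% and 50.4% over protein-coding genes. The 19 were the promoter islands of Smarcc1, Smarcd1 and Brd9 and 16 body islands. The median rank of these body islands was 35.8%, against 63.5% for the 5 shared ones. The protein-coding shares of 26.1% and 50.4% were not split into promoters and bodies either. For H3K4me3, 1 of 12 control islands and 0 of 12 kd islands (0% to 24.2%) lacked an overlap, and the protein-coding shares were 5.17% and 20%. The intervals cover counting error only, and regions of the same gene are not independent of each other.

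Smarca4 promoter peaks were also placed against the islands of the same condition. H3K4me3 islands overlapped 14 of 15 of them in control and 11 of 12 after kd, compared with 83.1% and 89.8% of the Smarca4 peaks at all protein-coding promoters. H3K27ac islands overlapped 10 of 15 in control and 12 of 12 after kd (22.2% and 43.2% at all protein-coding promoters). In the gene bodies, 14 of 23 control and 12 of 23 kd peaks overlapped H3K4me3 (24.6% and 41.2% over protein-coding gene bodies), and 7 of 23 and 11 of 23 overlapped H3K27ac (17.7% and 31.3%). For H3K4me3 at promoters, the counts were close to those shares. Of the internal coding starts over 1 kb from the gene start, those at 2209 bp and 2866 bp in Actl6a, 14272 bp and 14329 bp in Smarcc1 and 3158 bp in Arid1a had a call for Smarca4, H3K27ac and H3K4me3 within 1 kb in each condition. The remaining internal starts were called for H3K27ac in kd alone, at 32890 bp in Arid1a and 5938 bp in Dpf2, or for no antibody, at 19598 bp in the Smarca4 gene, 117200 bp in Smarcc1 and 31791 bp in Ss18.

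Polycomb regions did come near some of these genes. The nearest H3K27me3 island was 1610 bp from Smarcd1 in control and 3129 bp after kd, and 1623 bp and 1823 bp from Smarcc1. Over the 10 genes the median distance came to 10467 bp in control and to 14519 bp after kd. The nearest Ezh2 peak to any of the genes was 4920 bp from Smarcc1 in control and 4763 bp after kd, and the most distant 1395709 bp from Actl6a after kd. The nearest Ezh2 peak was further away after kd in 6 of 10 genes and the nearest H3K27me3 island in 8 of 10, compared with 40.2% and 43.1% of protein-coding genes. The kd lists were shorter, with 5364 Ezh2 peaks against 6708 and 18320 H3K27me3 islands against 22909.

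All 18 other BAF subunit genes had a Smarca4 promoter peak in each condition, 16 in control and 18 after kd had H3K4me3, and 10 and 13 had H3K27ac. H3K27me3 was called at 7 of 18 promoters in each condition and Ezh2 at 2 and 3. The combination most frequent among the core genes was present in 8 of the 18, and the remaining 10 differed as follows. Smarca2, the alternative ATPase, and Dpf3, which replaces Dpf2 in muscle and nerve, carried Ezh2, H3K27me3 and H3K4me3 in control and kd without H3K27ac. Dpf1, a neuronal relative of Dpf2, had Ezh2 and H3K27me3 calls in kd alone. Actl6b, the neuronal counterpart of Actl6a, and Smarcd3 carried H3K27me3 in each condition and H3K4me3 in kd alone. Brd7 and Ss18l1 carried H3K27me3 together with H3K27ac and H3K4me3, and Smarcc2 had H3K27me3 in control and H3K27ac after kd. Smarcd2 and Bcl7c lacked H3K27ac in control as did Smarcc1, Smarcd1 and Brd9.

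As a check of the labelled cell type, 8 stem cell marker genes and 9 markers of fibroblasts, neurons and endoderm were read in the same way. H3K4me3 was found at 7 of 8 stem cell genes in each condition and H3K27ac at 5 in control and 7 after kd, among them Pou5f1, Nanog and Sox2 in each list. H3K27me3 was found at 2 of 8 stem cell genes in control, Esrrb and Klf4, and at 1 after kd, Esrrb. Klf4 had no H3K27ac in control, and Esrrb had only H3K27me3 at its annotated start. Smarca4 did not separate the lists, with peaks at 7 of 8 stem cell genes and 7 of 9 markers of other cells in each condition. The 9 markers of other cells all had H3K27me3 in each condition and none had H3K27ac, while 3 in control and 5 after kd had H3K4me3. The most frequent combination of the core BAF genes, seen in 6 of 10, was seen in 5 of 8 stem cell genes and 0 of 9 markers of other cells.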

How the data were processed

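ChIP-seq was performed in 14 samples, 5 antibodies and inputs in control and Smarcb1 kd cells. The authors fixed the cells, and Smarca4 and H3K27me3 were immunoprecipitated by Active Motif and the other antibodies in the authors' laboratory, so differences between antibodies and between laboratories cannot be told apart. The submitters' processing notes name Trim Galore, Bowtie2, SAMtools 1.9, MACS2, SICER and mm10. For Smarca4 and Ezh2, the authors called peaks with MACS2, and the deposited values are a score per peak. For the histone marks, the authors called islands with SICER, and the deposited value is a p-value per island. Whether input or IgG served as background differs between the methods and the labels. The labels give a nominal depth of about 20 M reads per sample. Read counts were not used here and the depth of each library is unknown.

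From the 10 deposited lists, regions on the autosomes, X and Y were kept (0 to 61 lines left out per list) and placed on GENCODE M21 (GRCm38, the mm10 build) with Python 3.11.15, pandas 2.3.3, numpy 2.4.6 and pysam 0.24.0. Overlap needed 1 bp, and island ends were read as inclusive. Regions touching the promoter were not counted in the body. Wilson intervals (95%) were computed with scipy 1.17.1. The steps for overlap and for placing regions at promoters or in bodies were checked on simulated lists. With 1 library per antibody and condition, no test was run and values are given side by side. Bases in lower case in the reference were counted as repeat-masked. All 10 genes are named, other BAF genes are named only if their promoter combination differs from the most frequent one, and otherwise only marker genes and genes that share a start are named. The members and lists were chosen with earlier results of these data known. Alternatives were a stricter score or p-value, lists of equal length, promoter windows of 500 and 2500 bp, every coding start, other overlap rules, merging of regions within 600 bp, only regions over the gene start, and, chosen after seeing the data, leaving out regions at least 50% repeat-masked.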

Additional observations from a re-analysis of the deposited data

How the results depend on the processing

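No paired analysis was possible because there was 1 library per antibody and condition, and for the same reason no replicate could be left out. Of 207 alternative values, 187 were within 1.5 times the value reported for counts, or equal to it for median ranks, and 20 were not. The 187 include all Ezh2 and H3K27me3 counts, which were 0 under each setting. Under most settings these could not have moved, so the total does not measure how stable the other results are. With a stricter score (50) or p-value, H3K27ac promoters in control numbered 3 in place of 7, gene-body regions 14 for Smarca4 after kd and 3 and 13 for H3K27ac in control and after kd, and regions without a counterpart 9 and 7 for Smarca4, 0 for control H3K27ac and 0 for control H3K4me3. Fewer regions remain under this threshold by construction. Merging regions within 600 bp gave 15 control and 14 kd Smarca4 regions in the bodies, and allowing 1 kb between shared regions left 8 and 5 Smarca4 peaks in 1 condition alone. Taking every coding start as a promoter left 1 H3K4me3 island in the bodies in each condition, since those at Actl6a and Smarcc1 became promoter islands. Without regions at least 50% repeat-masked, an alternative chosen after seeing the data, H3K27ac body islands numbered 1 in control and 8 after kd, and islands found in 1 condition 0 in control and 11 after kd. Only regions over the gene start gave median Smarca4 ranks of 85.2% in control (9 genes) and 96.0% after kd (7 genes). These medians are over different genes and do not compare the conditions. The kd median leaves out Smarcb1 (71.3%), Dpf2 (60.5%) and Actl6a (59.2%), the lowest kd ranks, whose peaks did not cover the start. Promoter windows of 500 or 2500 bp, lists of equal length and an overlap of at least 50% of a region kept all counts within 1.5 times, although 23 kd Smarca4 body peaks became 17 at 2500 bp and 21 kd H3K27ac body islands became 17 with lists of equal length.

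The depth of each library is unknown beyond the nominal value in the labels, so a missing region says that none passed the authors' threshold, not that binding or the mark was absent. Peak numbers and widths depend on depth and on the calling program. Antibodies differed in laboratory and calling program, and ranks compare regions within a list, not amounts of binding.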
